A study of Mus musculus with 3 samples.

Results

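The insulin signalling and glycogen genes described here are 10 genes matched by symbol: Insr, Irs1, Irs2, Foxo1, Trib1, Gys2, Pygl, Ppp1r3b, Ppp1r3c and Ppp1r3g. They are 10 of the 32285 features listed in the files, and each symbol matched 1 feature. Mouse primary hepatocytes were profiled by droplet sequencing that counts unique molecular identifiers (UMIs) at the 3′ end of transcripts. The mice were wild type (WT) and had eaten their diet for 12 weeks. The group named HFD_HDCA received a 60% high fat diet with 0.25% hyodeoxycholic acid, a bile acid. The group named HFD received the 60% high fat diet alone, and the group named ND received a normal diet. Each diet had 1 library, so differences between diets have no replicate check and no p-value, and every interval on them covers counting error only. The sources used here give neither the number of mice behind a library, their sex and age, nor the hour and feeding state at collection.

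When insulin binds its receptor on a hepatocyte, the insulin receptor substrates pass the signal to PI3-kinase and AKT. AKT phosphorylates the transcription factor FOXO1, which then leaves the nucleus and stops activating its targets. The same signal favours glycogen storage: protein phosphatase 1, held on glycogen by its PPP1R3 targeting subunits, activates glycogen synthase and inactivates glycogen phosphorylase. In the liver lobule, hepatocytes near the portal vein and those near the central vein differ in many metabolic functions, gluconeogenesis being stronger on the portal side.

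Barcodes were kept from 200 detected genes upward and up to a mitochondrial share of 50%, which left 3000 HFD_HDCA, 2898 HFD and 2776 ND barcodes of 4873, 6290 and 5755. They held 5795200, 3734740 and 4274662 UMIs of nuclear-encoded genes, with medians of 1018, 732 and 813 per barcode in that order. All 15 hepatocyte markers were detected in each library. Summed endothelial markers stood at 202 counts per 1000000 nuclear-encoded counts (CPM) in HFD_HDCA, 164 CPM in HFD and 574 CPM in ND. Clock genes stood apart in ND: Dbp had 102, 71.5 and 12.4 CPM and Per3 had 28.5, 16.6 and 1.64 CPM in HFD_HDCA, HFD and ND, while Arntl had 1.55, 3.21 and 12.4 CPM. Libraries shared 7 kept barcode sequences.

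Since 3′ counts are not divided by transcript length, levels are compared between libraries and not between genes. Summing over barcodes cannot tell fewer cells with a transcript from fewer copies per cell. All 10 genes reached the minimum of 100 UMIs over the 3 libraries, as did 7855 genes in all. Ppp1r3g did so mainly through the HFD_HDCA library, so its difference from ND is in part built into the minimum. In GENCODE M21, a gene model on the opposite strand overlaps Insr, Irs1, Irs2, Foxo1, Pygl, Ppp1r3b and Ppp1r3g, and none overlaps Trib1, Gys2 or Ppp1r3c. No source used here says whether counting used strand, so the counts of the overlapped genes are uncertain to that extent.

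Promoters were searched for the E-box CACGTG, to which clock proteins are known to bind, and for cAMP-response and forkhead motifs. The RefSeq promoter table (GRCm38.p6) held 6 of the 10 genes: Irs1, Irs2, Foxo1, Pygl, Ppp1r3c and Ppp1r3g. In the 250 bases before the annotated start, both strands searched, CACGTG occurred in Irs1, Irs2 and Ppp1r3c and in 6.02% of all 32851 promoters. The cAMP response element core TGACG occurred in Irs1, Pygl and Ppp1r3g and in 17.8% of promoters. The full element TGACGTCA, in 1.55% of promoters, and the forkhead motif TGTTTAC, in 3.17%, were in none of the 6. A match describes these letters alone. The windows of Ppp1r3c, the gene with the lowest ratio to ND, and Irs2, the gene with the strongest portal bias, are printed 5′ to 3′ on the strand of the gene, with the E-box in capitals. That of Ppp1r3c spans chr19:36736654-36736854 on the minus strand, 201 bases ending where the GENCODE gene begins. That of Irs2 spans chr8:11008930-11009179 on the minus strand.
Ppp1r3c: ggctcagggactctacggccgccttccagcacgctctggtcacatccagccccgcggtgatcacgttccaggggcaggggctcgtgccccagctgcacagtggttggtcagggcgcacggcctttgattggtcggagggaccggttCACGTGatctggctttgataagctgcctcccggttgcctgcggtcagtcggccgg
Irs2: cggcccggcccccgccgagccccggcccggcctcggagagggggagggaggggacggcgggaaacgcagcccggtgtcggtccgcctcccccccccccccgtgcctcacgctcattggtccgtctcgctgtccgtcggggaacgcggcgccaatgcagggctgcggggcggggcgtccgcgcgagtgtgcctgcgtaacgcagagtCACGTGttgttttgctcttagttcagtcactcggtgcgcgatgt
The first base of the E-box lies 104 bases before the RefSeq start of Ppp1r3c and 44 bases before that of Irs2.

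Compared with ND, HFD hepatocytes had more Gys2 and Ppp1r3g RNA and less Ppp1r3c RNA, while Insr, Pygl and Ppp1r3b differed little. Of the 10 genes, 2 were at least 2-fold higher and 1 was at least 2-fold lower in HFD. The share of all 7855 measured genes past the same threshold was 2.85% upward and 3.53% downward. The median log2 ratio of the 10 genes was 0.16, against -0.06 over all measured genes.

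**Figure D1:**
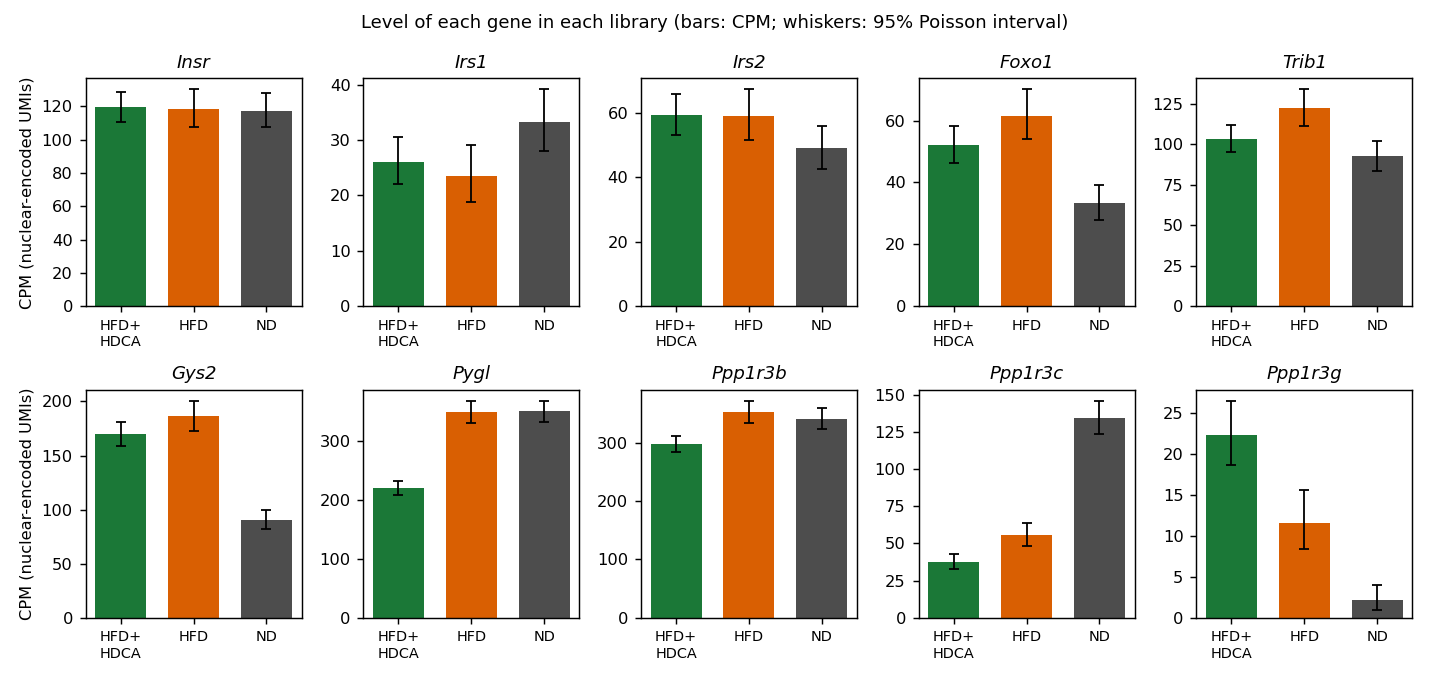
CPM of each gene (vertical axis, from 0, with its own scale per panel) in the HFD_HDCA, HFD and ND libraries; bars are library levels and whiskers 95% Poisson intervals, which cover counting error only. Gys2 reached 170 and 186 CPM in HFD_HDCA and HFD against 90.5 in ND, Ppp1r3c ran the other way, and Pygl was low in HFD_HDCA alone.

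The receptor and its substrates stand first in the pathway, and none of them was past 2-fold between libraries. Insr, which encodes the insulin receptor (chromosome 8, bases 3122061 to 3279617 of mm10), had 120 CPM in HFD_HDCA, 119 CPM in HFD and 117 CPM in ND. These levels lay within each other's counting intervals, and the log2 ratio of HFD to ND was 0.01 (95% interval -0.17 to 0.20). Irs1, the substrate that is also prominent in muscle and fat, had 26.1, 23.6 and 33.2 CPM in HFD_HDCA, HFD and ND. It was highest in ND, with log2 ratios of -0.49 (-0.90 to -0.10) for HFD and -0.35 (-0.69 to -0.01) for HFD_HDCA against ND. Irs2, the substrate whose transcription FOXO1 raises in fasting liver, had 59.2, 58.9 and 48.9 CPM in the same order. Its log2 ratio of HFD to ND was 0.27 (-0.01 to 0.55), within counting error, and that of HFD_HDCA to ND was 0.27 (0.02 to 0.53).

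Foxo1 and Trib1 act on the transcription side. Foxo1, the transcription factor that insulin holds out of the nucleus, had 52.1 CPM in HFD_HDCA, 61.6 CPM in HFD and 33.2 CPM in ND. Both high fat libraries were above ND and their intervals did not overlap its interval. The HFD level was 1.85-fold that of ND (log2 0.89, 0.58 to 1.20), short of the 2-fold threshold. After thinning each barcode to 500 UMIs the log2 ratio was 1.26, past it. HFD_HDCA was 1.57-fold ND (log2 0.65, 0.36 to 0.95). Foxo1 was also found in barcodes with at least 3 UMIs of endothelial markers, at 93.5 CPM, against 48.4 CPM in barcodes without such markers of other cell types. Without all barcodes so marked, the log2 ratio of HFD to ND was 0.93. Trib1, a pseudokinase that targets C/EBPα for degradation and restrains lipogenesis, had 103, 122 and 92.6 CPM in HFD_HDCA, HFD and ND. It was highest in HFD, with a log2 ratio of 0.40 (0.20 to 0.60) to ND.

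The genes that build glycogen and break it down differed in different libraries. Gys2, the liver glycogen synthase, had 170 CPM in HFD_HDCA, 186 CPM in HFD and 90.5 CPM in ND. Both high fat libraries were high and the ND library low, with no overlap of intervals. HFD was 2.06-fold ND (log2 1.04, 0.86 to 1.22) and HFD_HDCA was 1.87-fold ND (log2 0.90, 0.73 to 1.08). The HFD value sits close to the threshold, and its log2 ratio fell to 0.82 when every barcode was thinned to 500 UMIs. Pygl, the liver glycogen phosphorylase, had 219 CPM in HFD_HDCA, 348 CPM in HFD and 350 CPM in ND. Here HFD and ND were alike in level (log2 -0.01, -0.11 to 0.10) and HFD_HDCA was the low library. After thinning to 500 UMIs the log2 ratio of HFD to ND was -0.25, outside that interval, and HFD_HDCA remained the lowest.

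The subunits that bring the phosphatase to glycogen did not move together. Ppp1r3b, which encodes the main hepatic subunit GL, had 298 CPM in HFD_HDCA, 353 CPM in HFD and 341 CPM in ND. Its log2 ratio of HFD to ND was 0.05 (-0.06 to 0.16). Ppp1r3c, which encodes the subunit PTG, had 37.6 CPM in HFD_HDCA, 56.0 CPM in HFD and 135 CPM in ND. All 3 intervals were apart, ND the highest. The log2 ratio to ND was -1.27 (-1.50 to -1.04) in HFD and -1.84 (-2.07 to -1.61) in HFD_HDCA, so the ND level was 2.40-fold that of HFD and 3.58-fold that of HFD_HDCA. Ppp1r3g, a subunit tied in mouse liver to the response of glycogen to feeding, had 129 UMIs in HFD_HDCA, 43 in HFD and 9 in ND, or 22.3, 11.5 and 2.11 CPM. ND was the lowest library on few counts, and the log2 ratio to ND was 2.39 (1.39 to 3.67) in HFD and 3.33 (2.43 to 4.56) in HFD_HDCA. The clock genes Dbp and Per3 were ordered across libraries as Ppp1r3g was, and Arntl as Ppp1r3c was. These 3 were named because they moved so, and Arntl had only 9 UMIs in HFD_HDCA and 12 in HFD. Per1, Per2, Nr1d1, Nr1d2 and Tef were ordered as Dbp was. Ciart (27.8, 30.5 and 1.40 CPM in HFD_HDCA, HFD and ND), Clock (27.6, 27.3 and 62.2) and Npas2 (0.35, 0 and 3.51) had neither order. The part of clock genes in these differences was not tested.

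**Figure D2:**
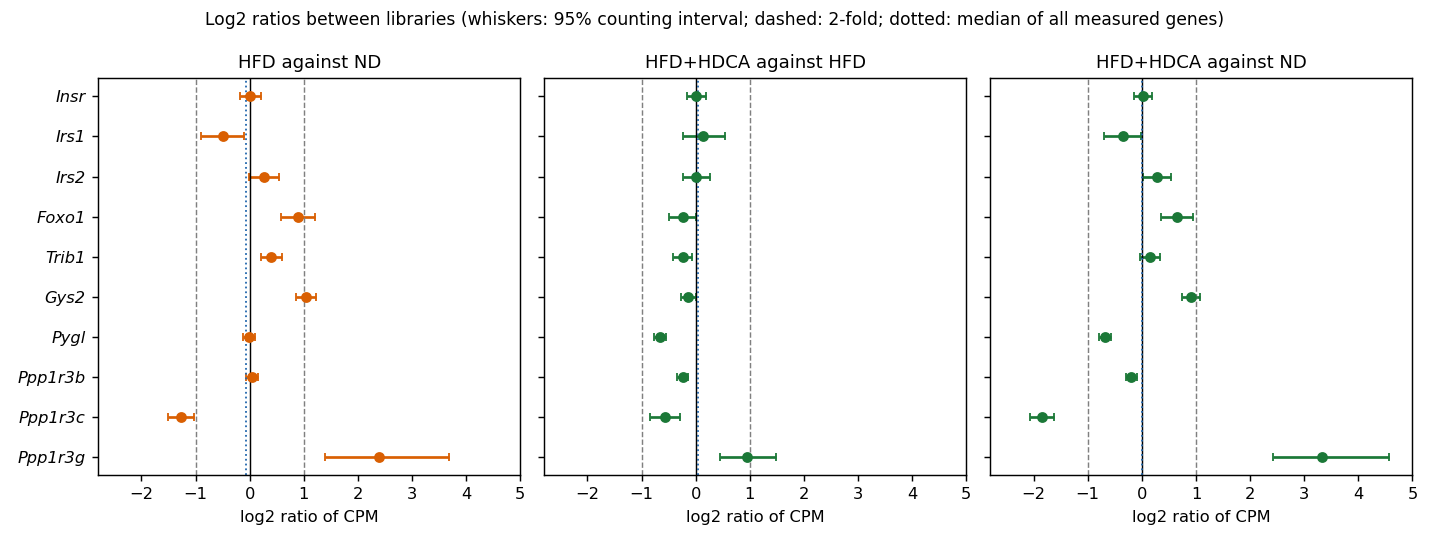
Log2 ratios of CPM (horizontal axis) for the 10 genes in each pair of libraries; points are ratios, whiskers 95% counting intervals, dashed lines the 2-fold threshold and dotted lines the median over all measured genes. Ppp1r3g and Ppp1r3c lie past 2-fold in both ratios to ND, Gys2 only in that of HFD at 1.04, and no gene is past 2-fold in HFD_HDCA against HFD.

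With hyodeoxycholic acid added to the high fat diet, Pygl and Ppp1r3c RNA were lower and Ppp1r3g RNA was higher, each by less than 2-fold. None of the 10 genes was past 2-fold between HFD_HDCA and HFD, against 1.63% of measured genes higher and 1.48% lower. The median log2 ratio of the 10 genes was -0.19, and that of all measured genes was 0.05. Pygl at 219 CPM in HFD_HDCA and 348 CPM in HFD gave a log2 ratio of -0.67 (-0.78 to -0.55). The median mitochondrial share of kept barcodes was also lowest in HFD_HDCA, at 7.42%, against 12.9% in HFD and 11.4% in ND. Among barcodes with at most 20% mitochondrial counts the log2 ratio of Pygl was again -0.67. That limit lies above each of these medians and does not match the libraries on this share, whose part was not tested. Ppp1r3c gave -0.57 (-0.85 to -0.29), and Ppp1r3b -0.24 (-0.35 to -0.14). Trib1 gave -0.24 (-0.42 to -0.06). Ppp1r3g, at 129 and 43 UMIs, gave 0.94 (0.44 to 1.48), just inside the threshold. Intervals on Insr (0.01), Irs1 (0.14), Irs2 (0.01), Foxo1 (-0.24) and Gys2 (-0.14) included 0.

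Against ND, HFD_HDCA had 1 of the 10 genes at least 2-fold higher, Ppp1r3g, and 1 at least 2-fold lower, Ppp1r3c. The shares of measured genes were 2.62% higher and 2.97% lower. This comparison shares its libraries with both others. Pygl gave -0.67 (-0.78 to -0.56) and Ppp1r3b -0.20 (-0.30 to -0.09), so HFD_HDCA was the low library for both. In barcodes with no markers of other cell types, the log2 ratio of Pygl was -0.70 and that of Ppp1r3c was -1.86.

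After thinning each barcode to 500 UMIs, 1.63% of HFD_HDCA, 2.89% of HFD and 6.73% of ND barcodes had a Ppp1r3c UMI. Without thinning these shares were 6.60%, 6.52% and 17.4%. Gys2 was seen in 9.82% of HFD_HDCA, 9.02% of HFD and 5.29% of ND thinned barcodes, and in 25.2%, 19.6% and 12.5% unthinned, and no order is read between HFD_HDCA and HFD, where CPM runs the other way. Pygl was seen in 10.7%, 14.9% and 17.5% of thinned barcodes in that order, and in 30.1%, 32.5% and 35.3% unthinned. Thinning left out 179 HFD_HDCA, 925 HFD and 339 ND barcodes as too shallow. Endothelial-marked barcodes were read in ND, which held 100 of the 161 in all libraries. Free RNA, doublets and the RNA of the marked cells themselves cannot be told apart in them. With a median of 910.5 nuclear-encoded UMIs, they had a Gys2 UMI in 5%, a Pygl UMI in 7% and a Ppp1r3c UMI in 4%, unthinned. ND barcodes without markers of other types, with a median of 802, had them in 12.8%, 36.6% and 18.1%. Ppp1r3g was seen in 0 of the 161 endothelial-marked barcodes, which allows a share of up to 1.86%. In barcodes without markers its share was 4.14% in HFD_HDCA, 1.41% in HFD and 0.30% in ND, so with most marked barcodes from ND the 0 does not set the cell types apart.

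Of 50 other genes of insulin signalling, 36 were measured. One, Foxo3, a forkhead factor regulated by AKT as FOXO1 is, was at least 2-fold higher in HFD than ND, and 0 were lower, so 1 of 36 stands near the 2.85% of all measured genes. Foxo3 had 48.7 CPM in HFD_HDCA, 74.2 CPM in HFD and 29.9 CPM in ND, with a log2 ratio of 1.31 (1.001 to 1.62) for HFD against ND. The count past 2-fold was 0 in both comparisons of HFD_HDCA. Pik3r1, the regulatory subunit of PI3-kinase, had 149, 171 and 92.6 CPM in HFD_HDCA, HFD and ND, high in both high fat libraries. Akt2, the main hepatic AKT, had 38.3, 45.0 and 44.2 CPM in that order, with intervals that overlapped. Grb14, an inhibitor of the receptor, had 39.3, 60.0 and 57.5 CPM and was lowest in HFD_HDCA. The list's median log2 ratio was 0.04 in HFD against ND, with 0.05 and 0.10 in HFD_HDCA against HFD and against ND.

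Of 33 other glycogen metabolism genes, 19 were measured and 0 were past 2-fold in any comparison. Their median log2 ratio was 0.03 in HFD against ND. In HFD_HDCA it was 0.29 against HFD and 0.25 against ND. Of the measured genes, 15 of 19 had a ratio above 0 in HFD_HDCA against HFD, as had 4411 of all 7855 measured genes. Gbe1, the branching enzyme, had 262, 254 and 148 CPM in HFD_HDCA, HFD and ND and was low in ND as Gys2 was. Ugp2, which makes UDP-glucose, had 704, 538 and 464 CPM, each interval apart from the others. G6pc, the glucose-6-phosphatase that FOXO1 activates, had 904, 903 and 980 CPM and differed little.

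Among 16 genes known as targets of FOXO1 or of insulin, a list that also holds G6pc, 15 were measured. In HFD against ND, 4 were at least 2-fold higher (Igfbp1, Pck1, Sesn1 and Klf15) and 1 was lower (Angptl8), where 2.85% and 3.53% of all measured genes were. Igfbp1, a secreted binding protein that insulin represses, had 344 CPM in HFD_HDCA, 654 CPM in HFD and 273 CPM in ND, highest in HFD. Pck1, the gluconeogenic PEPCK that insulin represses, had 3639, 4018 and 1701 CPM, high in both high fat libraries. Their log2 ratios of HFD to ND were 1.26 (1.16 to 1.37) and 1.24 (1.20 to 1.28). Angptl8, a feeding- and insulin-induced inhibitor of lipoprotein lipase, had 98.7, 24.6 and 644 CPM in HFD_HDCA, HFD and ND. It was highest in ND and lowest in HFD, with log2 ratios of -4.70 (-5.02 to -4.41) for HFD against ND and 1.996 (1.68 to 2.34) for HFD_HDCA against HFD. Klf15, a fasting-induced factor, gave 1.15 for HFD against ND, and Sesn1, a stress-induced inhibitor of mTORC1, 1.54 (0.73 to 2.47). Sesn1 had 54 UMIs in HFD_HDCA, 44 in HFD and 17 in ND. It reached the minimum mainly through the high fat libraries, so its difference from ND is in part built in. Pdk4, the target below the minimum, had 38, 4 and 21 UMIs in that order. Its log2 ratio of HFD to ND went the other way, at -2.06 (-4.20 to -0.63). In HFD_HDCA against ND, Pck1 (1.10) and Sesn1 (1.20) were past 2-fold above and Angptl8 (-2.71) below. In HFD_HDCA against HFD, Angptl8 was the 1 gene past 2-fold. The median log2 ratio of these targets was 0.29 in HFD against ND. In HFD_HDCA it was -0.14 against HFD and 0.33 against ND. Hour and feeding state, which many of these genes follow, cannot be told apart from diet here.

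**Figure D3:**
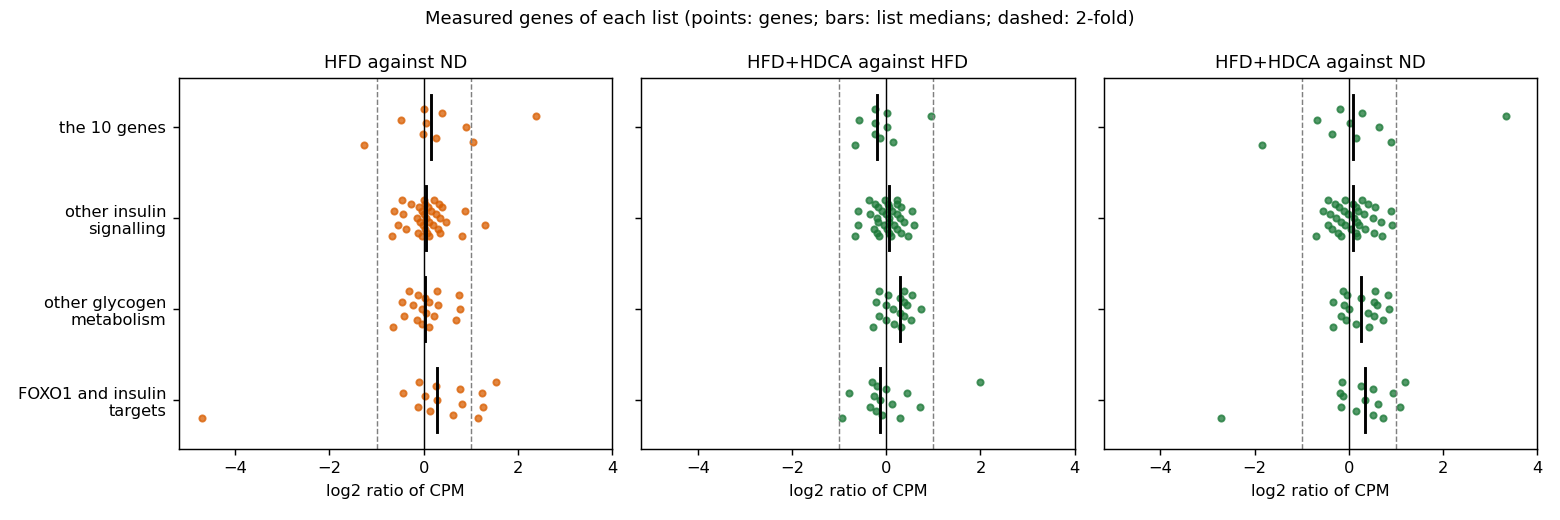
Log2 ratios of CPM (horizontal axis) of the measured genes in each list, in the 3 pairs of libraries; points are genes, vertical bars list medians and dashed lines the 2-fold threshold. Angptl8 is the far left point of the targets of FOXO1 and insulin at -4.70 in HFD against ND, and no other glycogen metabolism gene passes 2-fold.

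Position in the lobule was read from RNA. Barcodes without markers of other cell types were scored by 8 periportal and 6 pericentral landmark genes, none of them among the 10, and split by rank into 3 equal parts within each library. The parts held 2923 HFD_HDCA, 2842 HFD and 2647 ND barcodes in all, of which 154, 128 and 116 lay near a boundary, within 0.1 of the score. Of genes kept out of the score, all 11 known periportal and all 10 known pericentral genes lay on their own side in each library. The periportal part was deeper than the pericentral part: 2300 against 879 median nuclear-encoded UMIs in HFD_HDCA, 1507 against 708 in HFD and 1592 against 715 in ND. The score was also rebuilt from barcodes thinned to 500 UMIs, with their full counts summed. The parts so formed still differed in depth, periportal against pericentral. Median nuclear-encoded UMIs were 2466 against 1158.5 in HFD_HDCA, 2272.5 against 1323 in HFD and 1726 against 795 in ND. The thinned score therefore does not remove this depth difference, and the part it plays was not tested.

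Irs2, Gys2 and Trib1 RNA was higher in the periportal part when the 3 libraries were taken as replicates whatever their diet. Library was a term of the model, so differences in level between libraries were removed. The p-values therefore measure how far differences between parts vary from library to library. The test was edgeR's quasi-likelihood test over all 8228 genes tested, with Benjamini-Hochberg adjustment. It called 3 of the 10 genes higher and 0 lower, against 6.68% and 6.82% of genes tested. With library totals in place of TMM scaling, the split over all genes was 407 higher and 873 lower, against 550 and 561. DESeq2 called 1 of the 10 genes, Irs2.

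Irs2 had 76.3 CPM in the periportal and 36.3 CPM in the pericentral part of HFD_HDCA, 79.1 against 37.5 CPM in HFD, and 60.2 against 38.0 CPM in ND. The periportal part was the higher in every library and the middle part lay between. The log2 ratio was 1.03, with an edgeR adjusted p of 5.07e-06, and Irs2 passed under every alternative run. Within libraries it was 1.06 (0.64 to 1.52) in HFD_HDCA, 1.07 (0.57 to 1.61) in HFD and 0.65 (0.14 to 1.22) in ND. Pericentral levels were near each other in the 3 libraries. The log2 ratio of HFD to ND was 0.39 (0.02 to 0.76) in the periportal and 0.37 (-0.25 to 0.99) in the middle part. With common boundaries of the score these ratios were 0.48 (0.13 to 0.83) and 1.01 (0.34 to 1.72). The last rests on 51 HFD and 30 ND UMIs.

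Gys2 had 185 CPM in the periportal and 157 CPM in the pericentral part of HFD_HDCA, 221 against 142 CPM in HFD, and 92.3 against 87.6 CPM in ND. The difference was clear in HFD, small in HFD_HDCA and within counting error in ND. The log2 ratio over libraries was 0.41 (edgeR adjusted p = 0.0130). Without the HFD library it was 0.26 (edgeR adjusted p = 0.333), and without the HFD_HDCA library 0.47 (edgeR adjusted p = 0.0761). Ratios over libraries are scaled by TMM, whereas CPM and ratios within a library use library totals. With library totals the ratio of Gys2 over libraries was 0.32 (edgeR adjusted p = 0.0585). Trib1 had 112 against 92.3 CPM in HFD_HDCA, 145 against 105 CPM in HFD and 93.2 against 88.6 CPM in ND. Its log2 ratio was 0.47 (0.15 to 0.80) in HFD. In HFD_HDCA, at 0.28 (-0.01 to 0.58), and in ND, at 0.07 (-0.29 to 0.45), it was within counting error. With the score from thinned barcodes ND gave -0.14 (-0.50 to 0.24). The log2 ratio of Trib1 over libraries was 0.36 (edgeR adjusted p = 0.0374). It was 0.28 without HFD (edgeR adjusted p = 0.325) and 0.36 without HFD_HDCA (edgeR adjusted p = 0.206). With library totals in place of TMM it was 0.27 (edgeR adjusted p = 0.130).

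Ppp1r3c differed across the lobule in 1 library. It had 26.2 CPM in the periportal, 67.7 in the middle and 86.3 in the pericentral part of HFD. In HFD_HDCA the levels were 35.5, 35.9 and 44.5 CPM, and in ND 139, 138 and 137 CPM. The log2 ratio of periportal to pericentral was -1.71 (-2.28 to -1.19) in HFD, -0.33 (-0.79 to 0.14) in HFD_HDCA and 0.02 (-0.27 to 0.32) in ND. The gradient in HFD rests on 42 periportal and 99 pericentral UMIs, and with the score from thinned barcodes it was -1.64. Over the libraries Ppp1r3c did not pass (log2 -0.40, edgeR adjusted p = 0.204). Without ND it passed at -0.87 (edgeR adjusted p = 0.00406), and without HFD it was -0.02 (edgeR adjusted p = 0.970).

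The diet ratios of Ppp1r3c were also taken within each part of the lobule. Parts cut by rank within a library do not hold the same scores. The pericentral part of ND had a median score of -2.20, near the middle parts of HFD_HDCA (-2.19) and HFD (-2.33). These ratios therefore set unlike scores, and perhaps unlike positions, side by side. Whether like ranks or like scores mark like positions in libraries of different diets was not tested. HFD against ND gave a log2 ratio of -2.40 (-2.92 to -1.94) in the periportal, -1.02 (-1.48 to -0.59) in the middle and -0.67 (-1.05 to -0.29) in the pericentral part. HFD_HDCA against ND gave -1.97, -1.94 and -1.62 in the same order. HFD_HDCA against HFD gave 0.43 (-0.10 to 1.002), within counting error, in the periportal part, and -0.91 and -0.95 in the middle and pericentral parts. With the same score boundaries in all libraries, chosen for these ratios after seeing the data, HFD against ND gave -2.42 (-2.95 to -1.95), -1.11 (-1.62 to -0.63) and -0.60 (-1.08 to -0.09). The log2 ratio of periportal to pericentral was then -1.60 (-2.18 to -1.07) in HFD and 0.22 (-0.19 to 0.68) in ND, whose pericentral part held 307 barcodes.

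**Figure D4:**
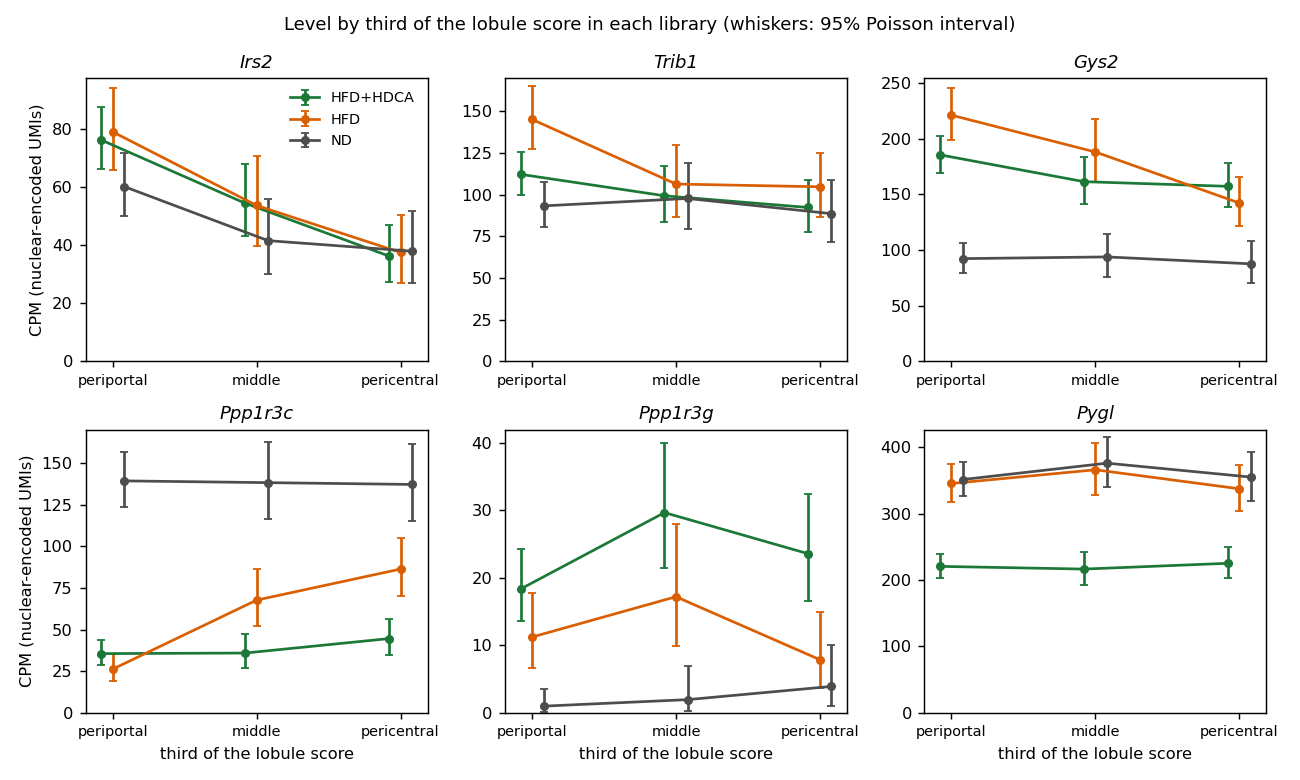
CPM (vertical axis, from 0) of 6 genes in the periportal, middle and pericentral parts of each library; points are sums over barcodes, whiskers 95% Poisson intervals, and the lines join the parts of 1 library. Irs2 falls towards the pericentral side in all 3 libraries, Ppp1r3c is lowest in the periportal part in HFD, at a log2 ratio of -1.71 to the pericentral part, and is level in ND, and Pygl is level in each.

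Pygl was level across the lobule, with 221 CPM periportal and 225 CPM pericentral in HFD_HDCA, 346 and 338 CPM in HFD, and 352 and 355 CPM in ND. Its lower level in HFD_HDCA than HFD was present in each part, at log2 ratios of -0.65, -0.76 and -0.58 from periportal to pericentral, and of -0.66, -0.61 and -0.70 with common boundaries. Ppp1r3b, Insr, Irs1, Foxo1 and Ppp1r3g did not pass between the parts, with edgeR adjusted p from 0.524 (Insr) to 0.798 (Ppp1r3g). Within HFD_HDCA, Insr had 108 CPM periportal and 138 CPM pericentral, a log2 ratio of -0.35 (-0.61 to -0.09). In HFD, at -0.18 (-0.50 to 0.15), and in ND, at -0.06 (-0.38 to 0.28), Insr was within counting error. Foxo1 in HFD against ND gave 0.81, 1.25 and 0.81 in the periportal, middle and pericentral parts, and 0.81, 1.27 and 0.76 with common boundaries. Gys2 gave 1.26 (1.002 to 1.52), 0.999 (0.64 to 1.38) and 0.70 (0.32 to 1.09), the largest in the periportal part with neighbouring intervals that overlapped, and 1.29, 1.01 and 0.71 with common boundaries. Ppp1r3g had 18, 16 and 9 UMIs in the parts of HFD and 2, 2 and 4 in ND, too few to order the parts.

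In the other lists, edgeR called 3 of 38 tested insulin signalling genes higher in the periportal part, Ceacam1, Tsc1 and Deptor, and 0 lower. The share of all tested genes called was 6.68% higher and 6.82% lower, and 3 of 38 is near it. Ceacam1, which promotes insulin clearance by hepatocytes, gave a log2 ratio of 0.55 (edgeR adjusted p = 0.0215). Of 20 tested glycogen metabolism genes, 3 were higher and 0 lower, namely G6pc, Slc37a4 and Slc2a2, which encode the glucose-6-phosphatase, its substrate transporter and the glucose transporter GLUT2. Of 15 tested targets of FOXO1 or insulin, 6 were higher and 0 lower, including Ppargc1a at 1.26 (edgeR adjusted p = 5.52e-05) and Pck1 at 0.71 (edgeR adjusted p = 8.16e-06). Pck1 and G6pc were also among the known periportal genes used to check the score.

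For the 8 genes with at least 500 UMIs, the genes most alike in level over the 9 sums of library and part were sought among 3175 genes by Pearson's r of log2 CPM. The 9 sums come from 3 libraries, so these are descriptions. Genes alike to Irs2 included Arg1 (r = 0.93) and Uox (0.93). Foxo1 was most like Mup21 (0.98), Klf15 (0.98) and Cpt1a (0.97). Gys2 was most like Akap13 (0.97), St3gal5 (0.97) and Rgs16 (0.96), and Rgs16 had 208 CPM in HFD_HDCA, 321 CPM in HFD and 17.2 CPM in ND. Pygl was most like Midn, Hsd3b3 (0.96 each) and Cyp2c70 (0.96), and Cyp2c70 had 145 CPM in HFD_HDCA, 621 CPM in HFD and 574 CPM in ND. Ppp1r3c was most like Tardbp (0.97), Acp5 (0.95) and Psen2 (0.94), and Ppp1r3b like Sec61a1 (0.93), Cyp2j6 (0.92) and Taf15 (0.91). Trib1 was most like Arf1 (0.99), Smg1 (0.98) and Slc25a32 (0.96). Insr, which varied little, was most like Brap (0.87), Alad (0.85) and Tbl1xr1 (0.84).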

How the data were processed

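The deposited values are UMI counts per gene and barcode, written by the authors with Cell Ranger 5.0.0 per the file headers, on mm10 per the submitters' processing notes. The sources do not say how barcodes were chosen or whether doublets were removed, and no doublet caller was run. The 10 genes and the lists were chosen with earlier results of these data known. Counts of kept barcodes were summed by library (Python 3.11.15, scipy 1.17.1) and scaled to nuclear-encoded totals. Poisson intervals are exact at 95%, and ratios add 0.5 counts and have exact conditional binomial intervals. A gene was called at 2-fold, and other listed genes were named when past 2-fold or fixed by name, a few of which are not reported here. The lobule score was ln(1 + periportal) minus ln(1 + pericentral) landmark UMIs per 10000. The periportal and pericentral sums were tested with edgeR 4.0.16 (filterByExpr, TMM, library and part as terms, landmarks left out, adjusted p under 0.05), and DESeq2 1.42.0 as an alternative. The edgeR test was also run on simulated counts, and DESeq2 was not.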

Additional observations from a re-analysis of the deposited data

Results flagged for a closer look

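The periportal to pericentral log2 ratio of Ppp1r3c was -1.71 in HFD and 0.02 in ND. The interval in ND included 0 and did not overlap that in HFD. With 1 library a diet the difference between diets was not tested.

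Barcodes left out by the filters were in none of the comparisons. They were shallow, with medians of 194 nuclear-encoded UMIs in HFD_HDCA, 128 in HFD and 166 in ND. In these, 3 ratios to ND were at least 2-fold higher with an interval above 0. The share of all genes past this rule in these barcodes was not computed, so that number is not read as a result. Foxo1 had 70.7 CPM in HFD and 19.3 CPM in ND, a log2 ratio of 1.83 (0.86 to 3.00) on 34 and 11 UMIs. Gys2 had 279 CPM in HFD and 137 CPM in ND, a log2 ratio of 1.02 (0.61 to 1.44). Ppp1r3g had 14 UMIs in HFD_HDCA and 4 in ND, a log2 ratio of 2.09 (0.54 to 4.27). Ppp1r3c was lower than ND in the same barcodes, at -1.06 (-1.80 to -0.40) in HFD and -2.39 (-3.64 to -1.44) in HFD_HDCA. Insr differed from its kept barcodes, with -0.71 (-1.18 to -0.25) in HFD_HDCA against HFD, where the kept barcodes gave 0.01.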

How the results depend on the processing

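No paired analysis was possible because each diet had 1 library, which holds for the comparisons between diets; the parts of the lobule were compared within libraries. Of 264 alternative log2 ratios of the 10 genes between diets, 250 stayed within the counting interval of the reported value and 14 did not, all of these after thinning to 500 UMIs or weighting barcodes equally. No ratio past 2-fold changed sign. After thinning, Insr gave -0.39 in HFD against ND and 0.39 in HFD_HDCA against HFD, and Gys2 gave 0.13 in HFD_HDCA against HFD. Pygl then gave -0.25 in HFD against ND and -0.50 in HFD_HDCA against HFD. The ratio of HFD to ND ranged from 0.82 to 1.11 for Gys2, -1.32 to -1.20 for Ppp1r3c, 2.25 to 2.53 for Ppp1r3g and 0.80 to 1.26 for Foxo1. With a minimum of 500 UMIs, Ppp1r3g and Irs1 dropped out, and of the 8 genes left 1, in place of 2, was past 2-fold in HFD_HDCA against ND and 2, in place of 3, in HFD against ND.

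The other lists' counts past 2-fold moved under 3 settings. After thinning to 500 UMIs, which also left out 925 HFD barcodes, they were 5 (insulin signalling) and 1 (glycogen) in HFD against ND, 1 (glycogen) and 2 (FOXO1 and insulin targets) in HFD_HDCA against HFD, and 3 (insulin signalling) and 2 (glycogen) in HFD_HDCA against ND. With a minimum of 20 UMIs they were 2 (insulin signalling) in HFD against ND, 1 (insulin signalling), 1 (glycogen) and 2 (targets) in HFD_HDCA against HFD, and 4 (insulin signalling) and 1 (glycogen) in HFD_HDCA against ND. With barcodes weighted equally they were 3 (targets) in HFD_HDCA against HFD and 1 (insulin signalling) in HFD_HDCA against ND. Counts over all measured genes moved too. In HFD against ND, 297 of 7855 were higher and 591 lower after thinning, against 224 and 277 as reported. With a minimum of 20 UMIs, 382 of 10833 were higher and 990 lower. HFD_HDCA against HFD gave 367 and 195 thinned, 531 and 298 at that minimum and 197 and 147 weighted equally, against 128 and 116. HFD_HDCA against ND gave 284 and 394, 392 and 747 and 233 and 288 likewise, against 206 and 233. The cause was not tested.

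Between periportal and pericentral parts, 1 of the 10 genes (Irs2) passed with DESeq2 and 1 (Irs2) without TMM scaling, and leaving out a library gave 1 to 4. The score from thinned barcodes, chosen after seeing the data, gave 2 (Trib1 at an edgeR adjusted p of 0.0502). Genes that did not pass turned sign with log2 ratios near 0: Foxo1 at -0.0356 with that score, Pygl and Ppp1r3b at -0.0164 each without TMM, and Ppp1r3g at 0.0279 without Cyp2e1 and Cyp2f2 in the score and -0.4164 to 0.0606 with a library left out. Counting error is widest for Ppp1r3g, with 9 UMIs in ND.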
